A study of Mus musculus with 2 samples.

Results

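Peaks of 700 to 1000 bp stood at the wide end of the Zfp217 binding map in mouse embryonic stem cells. There were 671 of them on chromosomes 1 to 19, among 18041 peaks on those chromosomes and 18737 in the whole list. They were chosen by their width alone, the end of a peak minus its start, so width is described here and supports nothing. The word broad refers to that width. Whether the peak caller was run in a mode for broad domains is not given in the sources used here. Broad peaks are set against 9057 narrower peaks on the same chromosomes, called comparison peaks. Their widths lie between the lower and the upper quartile of all widths in the list, bounds included, and their median width was 321 bp.

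The study mapped Zfp217 in CCE, an untreated mouse embryonic stem cell line grown feeder-free on gelatin, with serum and leukemia inhibitory factor in the medium. It held 1 library from an immunoprecipitation with a Zfp217 antibody and 1 input library from the same line, and both groups share that line and culture. The authors deposited a single peak list, in coordinates of the mouse build mm9, with no height, score or read depth. The input has no value of its own in it, so no level could be set against a control. With 1 list there was no replicate, and no test was made between peak classes. Intervals are 95% intervals that take peaks as independent and cover counting error only. Agreement among the 19 chromosomes is given beside them as a description.

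Zfp217 is a zinc finger protein that binds DNA and occurs in corepressor complexes with CoREST, the histone demethylase LSD1 and CtBP. Such complexes remove activating marks from histones. In chromatin immunoprecipitation followed by sequencing, DNA bound by the protein is enriched, and a peak caller reports each stretch of the genome where reads pile up. The width of a reported peak depends on how long the enriched stretch is, on the number of reads, on fragment length and on the rule by which the caller joins neighbouring stretches. A wide peak can therefore be 1 strong site, several close sites, or a longer bound domain, and a list of positions does not separate these. With neither an mm9 genome nor its annotation used here, no sequence is shown and peaks are not assigned to genes.

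Broad peaks made up 3.72% of the peaks on chromosomes 1 to 19 (exact Clopper-Pearson interval 3.45 to 4.01%) and 8.08% of the bases under peaks, 0.540 of 6.68 Mb. Their median width was 790 bp, and the widest had 999 bp. Another 95.2% of peaks were narrower than 700 bp and 1.08% were wider than 1000 bp, so broad peaks lay near the top of the range without including its extreme. Of the 671, 356 (53.1%) were under 800 bp. The bounds do not mark a gap in the widths. Just outside the lower bound, 81 peaks had 690 to 699 bp, and just inside it 57 had 700 to 709 bp. At the upper bound, 6 peaks had 991 to 1000 bp and 12 had 1001 to 1010 bp. The median distance to the nearest other peak was 19.6 kb for the 81, 21.2 kb for the 57, 21.4 kb for the 6 and 22.2 kb for the 12. Among the 81 peaks 32 had a neighbour within 10 kb, as had 17 of the 57, 1 of the 6 and 5 of the 12. The median distances showed no step at either bound, although few peaks lay at the upper one.

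**Figure D1:**
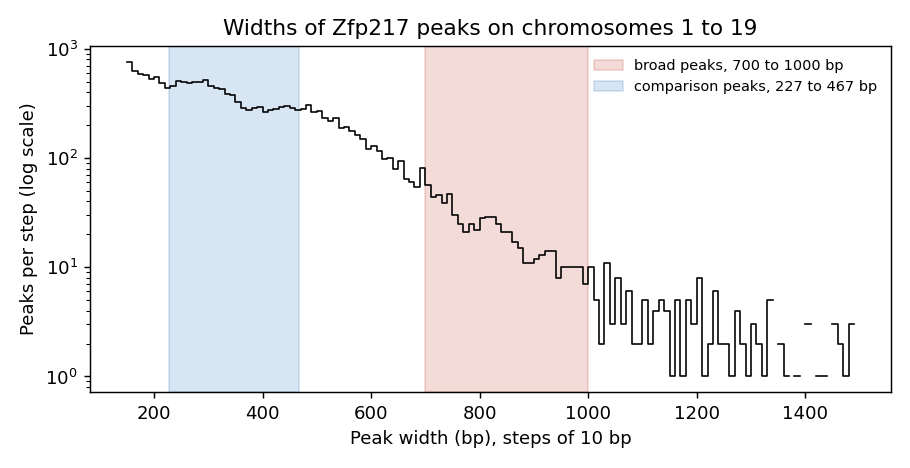
Number of peaks on chromosomes 1 to 19 at each width, in steps of 10 bp up to 1500 bp, on a log scale, with the broad class of 671 peaks shaded red and the comparison class of 9057 peaks shaded blue. The number falls across the broad class, unevenly from step to step, from 57 peaks at 700 to 709 bp to 6 in the 10 bp up to its upper bound.

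Broad and comparison peaks occurred in bins with the same median number of peaks. Peak density around a peak was measured as the number of other peaks of any width in its 1 Mb bin. The median was 14 other peaks for broad peaks (interval of the median 13 to 16) and 14 for comparison peaks (14 to 14). The middle 50% of broad peaks had 7 to 27 others, and the middle 50% of comparison peaks had 7 to 25. The broad median was the higher on 10 of 19 chromosomes, the lower on 8 and equal on 1. The chromosomes thus gave no consistent direction. With bins shifted by 0.5 Mb the medians were 16 (14 to 17) against 14. Within 0.5 Mb to each side of the midpoint they were 15 (14 to 16) against 14. Without chromosome 9, or without chromosome 13, they were 15 (13 to 16) against 14. For widths of 600 to 1000 bp they stayed equal at 14, and none of the alternative settings gave a lower broad median.

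The share of peaks that were broad changed little with the density of the bin, apart from the sparsest bins. In bins of 1 to 5 peaks, 77 of 2915 peaks were broad, or 2.64% (2.09 to 3.29%). In bins of 6 to 10 peaks the share was 3.90% (3.31 to 4.57%). It was 3.99% in bins of 11 to 20 peaks, 3.78% in bins of 21 to 40, and 4.21% (3.32 to 5.27%) in the 33 bins with more than 40 peaks. The interval of the sparsest bins ended just below that of the next class but reached that of bins with 21 to 40 peaks, which began at 3.26%. The other 4 classes overlapped each other. The sole peak of a bin was a broad peak in 3 cases (0.447% of broad peaks) and a comparison peak in 135 (1.49%). The share over all peaks is not given here, so these counts are not read as a trait of broad peaks.

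The 671 broad peaks occupied 484 of the 2133 bins that held any peak. A single broad peak was found in 357 bins, and 88 bins held 2. The bin with most broad peaks lay on chromosome 4 between 129 and 130 Mb, where 6 of 34 peaks were broad. Bins with 5 followed on chromosome 7 between 134 and 135 Mb (of 53 peaks), on chromosome 9 between 3 and 4 Mb (of 40) and on chromosome 17 between 15 and 16 Mb (of 32). The fifth bin by rank, on chromosome 2 between 155 and 156 Mb, held 4 of 22. In all, 12 bins held 4 broad peaks, and the others were not named. Peaks over 1000 bp were absent from the bins on chromosomes 4 and 2. They numbered 2 in the bin on chromosome 7, 3 in the bin on chromosome 17 and 15 in the bin on chromosome 9.

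**Figure D2:**
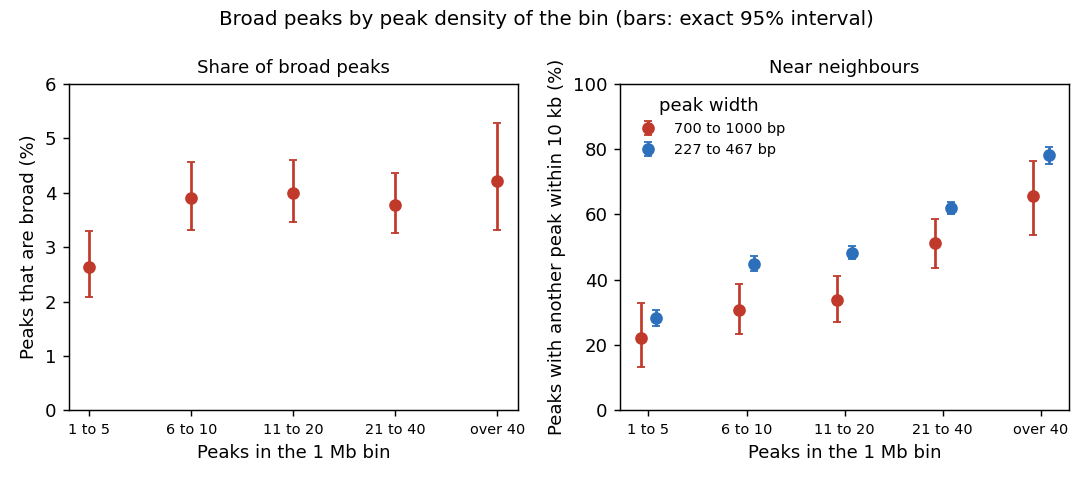
Left, percentage of all peaks that were broad in 1 Mb bins grouped by the number of peaks they held; right, percentage of broad (red) and comparison (blue) peaks with another peak within 10 kb in the same groups of bins, with exact 95% intervals. The share of broad peaks is 2.64% in the sparsest bins and 3.78 to 4.21% in the others, and the red points lie below the blue ones in every group.

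At short range, broad peaks had fewer immediate neighbours than comparison peaks. The median distance from a broad peak to the nearest other peak, edge to edge, was 15.3 kb (12.6 to 17.2 kb), against 9.12 kb (8.66 to 9.71 kb) for comparison peaks, or 1.68 times as far. The broad median was the longer on 17 of 19 chromosomes. The exceptions were chromosome 11, with 6.10 kb against 6.15 kb, and chromosome 6, with 10.6 kb against 13.2 kb. The widest gaps between the classes were on chromosome 3, with 35.2 kb against 7.15 kb, chromosome 18, with 40.1 kb against 10.4 kb, and chromosome 16, with 43.6 kb against 13.6 kb. Chromosomes 16 and 18 held only 18 and 14 broad peaks, so the intervals of their medians were wide (5.46 to 288 kb and 4.63 to 166 kb).

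Of the broad peaks, 100 (14.9%; 12.3 to 17.8%) had another peak within 500 bp, where 22.4% of all peaks on chromosomes 1 to 19 and 24.7% of comparison peaks did. The difference from comparison peaks was -9.78 percentage points (Newcombe interval -12.4 to -6.76), and the share was lower in broad peaks on 17 of 19 chromosomes. Within 1 kb, 138 broad peaks (20.6%) had a neighbour, against 27.5% of all and 29.6% of comparison peaks. Within 5 kb the number was 201 (30.0%), against 39.2% of all and 41.6% of comparison peaks. Within 10 kb it was 268 (39.9%; 36.2 to 43.8%), against 48.5% of all and 51.4% of comparison peaks, a difference of -11.5 points (-15.3 to -7.60), with the lower share in broad peaks on 18 of 19 chromosomes. Broad peaks were therefore below both the comparison class and the whole list at each of these distances.

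The share with a neighbour within 10 kb was lower in broad peaks in each class of bin density. Where a bin held 6 to 10 peaks, 30.7% of broad and 44.9% of comparison peaks had a neighbour within 10 kb. In bins of 11 to 20 peaks the shares were 33.9% and 48.2%, and in bins of 21 to 40 they were 51.1% and 62.0%. In these 3 classes of bins the intervals of broad and comparison peaks did not overlap. In bins of 1 to 5 peaks the shares were 22.1% (13.4 to 33.0%) and 28.2% (25.8 to 30.7%), which overlapped. In bins of more than 40 they were 65.8% (53.7 to 76.5%) and 78.0% (75.3 to 80.6%), which also overlapped. The median distance was the longer for broad peaks in 4 of these 5 classes and turned in the sparsest, with 58.3 kb (33.3 to 86.3 kb) against 66.4 kb (52.1 to 78.1 kb).

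**Figure D3:**
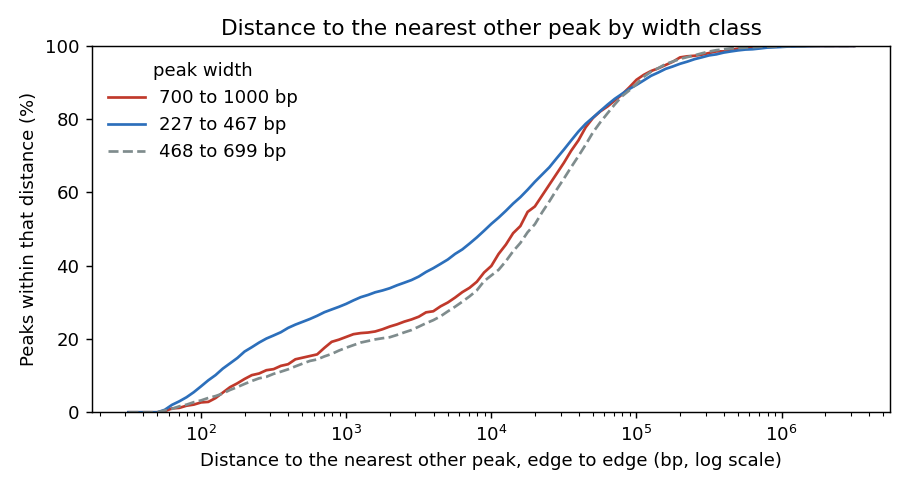
Cumulative percentage of peaks whose nearest other peak lies within the distance on the horizontal axis (bp, log scale), for broad peaks (red), comparison peaks (blue) and peaks of 468 to 699 bp (grey, dashed). The red curve runs below the blue one over the shorter distances, at 14.9% against 24.7% at 500 bp and 39.9% against 51.4% at 10 kb. Up to 10 kb it stays close to the grey one, and just beyond that it runs between the grey and the blue.

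Counting every neighbour and not just the nearest, broad peaks had fewer in the first 500 bp and as many or more in each zone beyond it up to 500 kb. In that zone there were 17.4 other peaks per 100 broad peaks, counting both sides, and 26.5 per 100 comparison peaks, a ratio of 0.658. Between 500 and 1000 bp the numbers were 8.20 and 7.96, a ratio of 1.03. Between 1 and 5 kb they were 28.5 and 27.2 (ratio 1.05), and between 5 and 10 kb 31.4 and 28.6 (1.10). Between 10 and 50 kb each 100 broad peaks had 229 other peaks and each 100 comparison peaks 197 (1.16). The ratio was 1.09 between 50 and 100 kb and 1.02 between 100 and 500 kb. These counts include the same neighbour for several peaks of a cluster, and no interval is given for them.

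Neighbours within 10 kb were arranged differently in broad and comparison peaks. On both sides, 72 broad peaks (10.7%; 8.49 to 13.3%) and 983 comparison peaks (10.9%; 10.2 to 11.5%) had one. On 1 side only, 196 broad peaks (29.2%; 25.8 to 32.8%) and 3675 comparison peaks (40.6%; 39.6 to 41.6%) had one. The difference between broad and comparison peaks lay in peaks with a neighbour on a single side. It was not particular to broad peaks. Of peaks of 468 to 699 bp, 30.3% (28.9 to 31.8%) had a neighbour on 1 side only, and 7.01% (6.21 to 7.88%) on both. The 533 broad peaks with no other peak within 1 kb had a median distance of 23.4 kb (20.7 to 26.7 kb), and the 6377 comparison peaks of this kind had 22.2 kb (21.1 to 23.4 kb), so the medians overlapped once peaks with a very close neighbour were set aside. Of these peaks, 24.4% (20.8 to 28.3%) of the broad and 31.0% (29.9 to 32.2%) of the comparison class had a neighbour within 10 kb. The share was 23.9% (22.4 to 25.5%) for peaks of 468 to 699 bp of this kind.

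At long range broad and comparison peaks overlapped. Broad peaks more than 100 kb from any other peak numbered 62 (9.24%; 7.16 to 11.7%), against 12% of all peaks and 10.6% (10.0 to 11.3%) of comparison peaks. The difference from comparison peaks was -1.39 points, and its interval, -3.46 to 1.11, held 0. The most isolated broad peak, 721 bp on chromosome 12 from 11272422 to 11273142, was 826 kb from its neighbour and the sole peak of its 1 Mb bin. The next lay on chromosome 4 from 9596043 to 9596755 (713 bp, 763 kb from the next peak, also alone in its bin). The third lay on chromosome 2 from 44782339 to 44783181, with 843 bp and a distance of 753 kb, and shared its bin with 1 other peak.

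Sparse immediate surroundings were not particular to widths of 700 to 1000 bp. The 3711 peaks of 468 to 699 bp, a class added after the data were examined, had a median distance of 18.9 kb (17.4 to 20.2 kb), longer than that of broad peaks, and the intervals did not overlap. Within 500 bp 13.3% of them had a neighbour, and within 10 kb 37.3%. Broad peaks differed from that class by 1.65 points (-1.09 to 4.72) and 2.59 points (-1.37 to 6.65), and both intervals held 0. In steps of 50 bp, the share with a neighbour within 10 kb was 55.2% at 300 to 349 bp, 51.3% at 350 to 399 bp, 44.5% at 400 to 449 bp and 37.3% at 450 to 499 bp. From there to 650 to 699 bp it stayed between 36.6 and 38.8%. The decline lay within the upper part of the comparison class and just above it.

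Among the broad peaks themselves no trend with width was seen. Over the 6 steps of 50 bp, the share with a neighbour within 10 kb was 38.6% at 700 to 749 bp (233 peaks), 47.2% at 750 to 799 bp (123), 33.3% at 800 to 849 bp (132), 40% at 850 to 899 bp (75), 45.9% at 900 to 949 bp (61) and 38.3% at 950 to 1000 bp (47). All 6 intervals overlapped. The median number of other peaks in the bin ran between 12 and 16 over these steps. Peaks over 1000 bp were unlike the broad class: 69.1% (62.1 to 75.5%) of those 194 had a neighbour within 10 kb and 34.0% (27.4 to 41.2%) one within 500 bp, and their bins held a median of 25.5 other peaks (24 to 32).

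**Figure D4:**
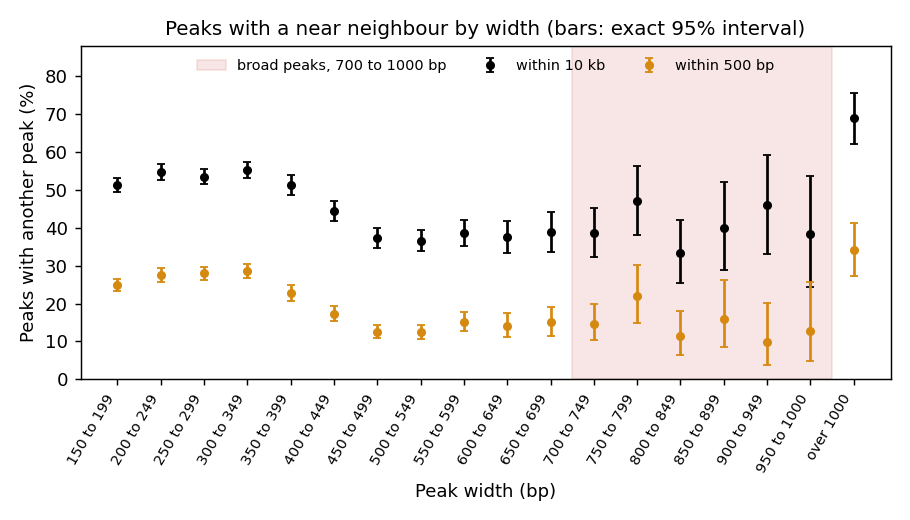
Percentage of peaks with another peak within 10 kb (black) and within 500 bp (orange) at each width, in steps of 50 bp and with all peaks over 1000 bp together; bars are exact 95% intervals and the broad class is shaded. The 10 kb share drops from 55.2% at 300 to 349 bp to 37.3% at 450 to 499 bp, lies between 33.3 and 47.2% through the broad class and reaches 69.1% above 1000 bp.

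Runs, in which 3 or more peaks of any width follow each other with no gap over 10 kb, held 139 broad peaks (20.7%; 17.7 to 24.0%), close to the 21.5% of all peaks and the 22.6% of comparison peaks. The difference from comparison peaks, -1.93 points (-4.95 to 1.41), held 0. Against peaks of 468 to 699 bp, of which 15.8% lay in runs, the difference was 4.90 points (1.76 to 8.32). The order against comparison peaks also turned with a run gap of 25 kb (42.8% against 42.0%) and for all peaks of 700 bp and wider (27.5% against 22.6%). Of the 1002 runs, 128 contained a broad peak. In 121 of them there was a single one, and in 118 the widest peak of the run was a broad peak. The remaining 10 of the 128 held a peak over 1000 bp. The median run with a broad peak had 4 peaks, against 3 for runs without one. A longer run has more chances to hold one.

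The peak nearest to a broad peak had a median width of 356 bp (335 to 373 bp). It was 314 bp (310 to 318 bp) for the peak nearest to a comparison peak. All peaks on chromosomes 1 to 19, themselves and not their neighbours, had a median width of 323 bp. Within 1 kb, the 138 nearest neighbours of broad peaks had a median of 304.5 bp, against 292.5 bp for those of comparison peaks. Of the 138, 67 (48.6%) were of comparison width, near the 50.2% of all peaks. Among nearest neighbours of comparison peaks within 1 kb, 57.1% were of that width. A second broad peak was the nearest neighbour of 40 broad peaks (5.96%; 4.29 to 8.03%), against 3.46% of all peaks and 3.32% (2.96 to 3.71%) of comparison peaks. This difference, 2.64 points (1.04 to 4.72), was in the same direction on 14 of 19 chromosomes. Without the run of 36 peaks at the start of chromosome 9 the share was 5.71%. Since width chose the class, the width of neighbours is given as a description.

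The median distance from a broad peak to the next nearest broad peak was 497 kb (429 to 646 kb), and from a comparison peak to the nearest broad peak 647 kb (619 to 678 kb), so the intervals overlapped. With the class narrowed to 750 to 1000 bp the order turned, to 1033 kb against 1012 kb. Another broad peak lay within 100 kb of 145 broad peaks (21.6%; 18.6 to 24.9%), against 16.3% of all peaks and 16.5% (15.7 to 17.2%) of comparison peaks. The share was higher in broad peaks on 12 of 19 chromosomes and lower on 7. Within 10 kb, 22 broad peaks (3.28%; 2.07 to 4.92%) had another, against 2.7% of all peaks and 2.73% of comparison peaks. Within 1 kb, 10 (1.49%; 0.717 to 2.72%) had another, against 0.953% of all and 0.905% of comparison peaks. The differences from comparison peaks, 0.552 points (-0.608 to 2.22) and 0.585 points (-0.128 to 1.83), both held 0. By chromosome, the share within 10 kb was lower in broad peaks on 14 and higher on 5. Within 1 kb it was lower on 14 and higher on 4. Only 22 and 10 broad peaks had such a neighbour, and a chromosome without any cannot count as higher. These counts by chromosome were therefore not read as a direction. Without the run on chromosome 9 the order within 10 kb turned, to 2.55% against 2.63% of comparison peaks. A peak over 1000 bp lay within 100 kb of 52 broad peaks (7.75%; 5.84 to 10.0%), against 4.89% of all peaks and 4.65% (4.22 to 5.10%) of comparison peaks. The share near a peak over 1000 bp was higher in broad peaks on 10 chromosomes and lower on 9. With 52 such broad peaks over 19 chromosomes, few fell on each on average, and the split gives no direction. Without the run on chromosome 9 the share over all chromosomes was 7.06% (5.23 to 9.27%) against 4.55%.

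When broad peaks no more than 100 kb apart were linked, 526 (78.4%) remained single, 98 formed 49 pairs and 47 (7.0%) fell into 14 groups of at least 3. The other 21.6% had a broad peak within 100 kb, against 16.3% of all peaks and 16.5% of comparison peaks. Standing apart from broad peaks was thus not more common in broad peaks than in the others. The number of groups depended on the settings: it was 4 with a gap of 50 kb and 29 with 200 kb, and 68 for widths of 600 to 1000 bp, 6 for 750 to 1000 bp and 30 for 700 bp and wider. The 14 groups lay on 10 chromosomes, with 3 on chromosome 17 and 2 each on chromosomes 4 and 19. They spanned 7.72 to 226 kb. Between 0 and 24 peaks of other widths lay inside them, and 11 of the 14 enclosed no peak over 1000 bp.

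The group with most members was on chromosome 9 from 3001655 to 3021257. Its 5 broad peaks, of 811 to 874 bp, lay within 19.6 kb together with 17 other peaks, 6 of them over 1000 bp, and peaks covered 84.0% of the stretch. It was part of the run of 36 peaks at the start of the chromosome. The closest pair of broad peaks in the genome lay inside it, 128 bp apart, with 867 bp from 3012673 and 815 bp from 3013668. Whether extra copies of that sequence in the cells gave rise to these peaks was not tested.

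The other named groups were looser. On chromosome 4 from 129317733 to 129497645, 4 broad peaks of 784, 721, 738 and 706 bp were spread over 180 kb with gaps of 45.0 to 76.9 kb and only 2 other peaks between them. Peaks covered 1.94% of that stretch. On chromosome 8 from 87370572 to 87596270, 4 broad peaks of 741 to 838 bp lay among 24 other peaks over 226 kb. On chromosome 17 from 15115383 to 15178926, 4 of 707 to 817 bp lay among 11 others over 63.5 kb, 2 of which were wider than 1000 bp. On chromosome 3 from 96163558 to 96256604, 3 broad peaks of 754, 942 and 773 bp lay with 7 others over 93.0 kb. Gaps between neighbouring broad peaks in the group on chromosome 8 were 55.5 to 86.5 kb, wider still than in the group on chromosome 4. The shortest group, chosen after its values were seen, was 3 broad peaks of 700, 737 and 768 bp within 7.72 kb on chromosome 19 from 23208236 to 23215955, where peaks covered 43.6% of the bases.

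By chromosome, broad peaks followed the number of peaks. Each chromosome held between 14 and 55 of them. Their density was highest on chromosome 19, with 0.506 per Mb (Poisson interval 0.344 to 0.719), and on chromosome 17, with 0.504 (0.372 to 0.668). It was lowest on chromosome 18, with 0.154 (0.0843 to 0.259). Over the 19 chromosomes, the densities of broad and comparison peaks had a Pearson's r of 0.85 and a Spearman's rho of 0.89, given as a description, since both come from 1 library and 1 list.

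As a share of a chromosome's peaks, broad peaks ran from 2.76% on chromosome 2 (1.96 to 3.77%, 38 of 1377) to 5.16% on chromosome 19 (3.53 to 7.24%, 31 of 601). Chromosome 17 came next to the top with 5.04% (3.74 to 6.63%, 48 of 952), and chromosomes 13, 14 and 18 lay near the bottom with 2.80, 2.82 and 2.90%. The interval of 18 of the 19 chromosomes held the overall 3.72%. The exception was chromosome 17, whose interval began just above it. The intervals of chromosomes 2 and 19 overlapped slightly, although these were the extremes. Chromosome 13 was near the bottom here, with 20 broad peaks among 714.

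**Figure D5:**
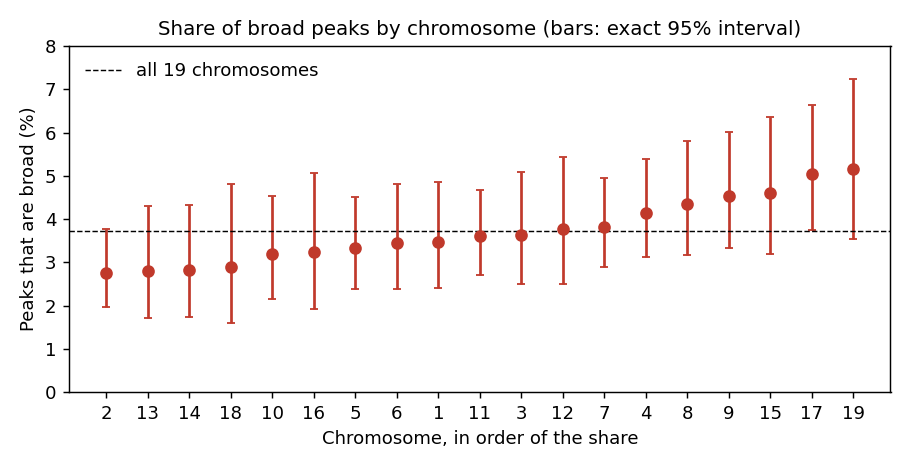
Percentage of each chromosome's peaks that were broad, in ascending order, with exact 95% intervals; the dashed line marks 3.72%, the share over all 19 chromosomes. The points run from 2.76% on chromosome 2 to 5.16% on chromosome 19, and only the interval of chromosome 17 does not reach the line.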

How the data were processed

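The authors deposited 1 peak list of 4 columns: chromosome, start, end and peak name. Its values are positions in bp of the build mm9, per the submitters' processing notes, which name CASAVA 1.4, Bowtie2 and MACS2 with no role or setting. How the threshold was set, duplicates were handled and the input was used is not given in the sources used here. Read depth is unknown. Printed starts are counted from 1.

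Distances are edge to edge on chromosomes 1 to 19. A peak belongs to the 1 Mb bin of its midpoint. Comparison peaks were 227 to 467 bp wide. Density per Mb used the end of a chromosome's last peak as its length. Shares have exact Clopper-Pearson intervals, differences of shares Newcombe intervals, and medians order-statistic intervals. The measures were checked on simulated peaks.

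Named regions were the 5 groups and 5 bins with most broad peaks, the 3 most isolated broad peaks, the closest pair, and the chromosomes with the highest and lowest share. The class, measures and rules were chosen with earlier results of these data known. Alternatives were other width bounds, merging within 1000 bp, other gaps, bins and comparison classes, and chromosomes left out. The class of 468 to 699 bp, the share within 500 bp, the counts by distance zone and the removal of the run on chromosome 9 were added after the data were examined. No gene table was used, since the one at hand is of another build. Scripts ran in Python 3.11.15 with scipy 1.17.1, numpy 2.4.6 and pandas 2.3.3, and figures were drawn with matplotlib 3.10.9.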

Additional observations from a re-analysis of the deposited data

Results flagged for a closer look

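Outside chromosomes 1 to 19, 14 peaks had a width of 700 to 1000 bp and entered none of the comparisons: 12 on X and 2 on other sequences. They are listed because 14 exceeds 3, the upper limit for a count of 0, which is a low bar. The 12 on X were 2.01% of its 598 peaks (exact Clopper-Pearson interval 1.04 to 3.48%), against 3.72% (3.45 to 4.01%) on chromosomes 1 to 19, and the intervals overlapped narrowly. No group held the 4 samples that a search for outlying samples needs.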

How the results depend on the processing

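Of 77 alternative values, 47 stayed within the interval of the reported value, or within 1.5 times a count, and kept their direction against the comparison class. Another 23 moved and 7 reversed. The median number of other peaks in the bin, reported as 14 against 14, had no direction to keep. It became 16 against 14 with shifted bins and 15 against 14 without chromosome 9 or 13, within its interval. Against peaks of 468 to 699 bp, added later, 3 directions turned at short range: the median distance (15.3 kb against 18.9), the share within 10 kb (39.9% against 37.3%) and that within 500 bp (14.9% against 13.3%). The share in runs, 20.7% against 15.8%, turned as well. That share also turned with a run gap of 25 kb (42.8% against 42.0%) and for widths of 700 bp and wider (27.5% against 22.6%), and it moved to 12.7% with a gap of 5 kb. The distance between broad peaks turned at 750 to 1000 bp (1033 kb against 1012).

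Width bounds changed numbers by construction. Widths of 600 to 1000 bp gave 1547 broad peaks, 8.57% of all, 68 groups and a distance between broad peaks of 203 kb. Widths of 750 to 1000 bp gave 438 peaks, 2.43% and 6 groups. Widths of 700 bp and wider gave 30 groups, a distance between broad peaks of 257 kb, a median distance of 11.6 kb, and shares of 46.5% within 10 kb and 19.2% within 500 bp. After merging, there were 1258 regions (8.19%), 34 groups, 12 others in the bin, a median distance of 25.3 kb (22.2 for the comparison class), 23.8% within 10 kb, 9.78% in runs and 272 kb between broad regions. Group gaps of 50 and 200 kb gave 4 and 29 groups. Among the 77 values, neither leaving out chromosome 9 or 13 nor removing the run on chromosome 9 moved a value beyond its limits or turned a direction. Outside them, 1 reported direction turned without that run. The share within 10 kb of another broad peak became 2.55%, against 2.63% of comparison peaks. No paired analysis was possible because there is 1 list and no replicate. Sequence and gene annotation were not examined without an mm9 genome. Without read depth, a missing neighbour cannot be told from too few reads.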

Other observations

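Merging peaks within 1000 bp of each other turned the 18041 peaks on chromosomes 1 to 19 into 15354 regions, of which 1258 were 700 to 1000 bp long. Of these, 533 were single deposited broad peaks and 725 were made of several peaks. The other 138 broad peaks merged with a neighbour. Among merged regions of this length, those listed as several close peaks thus outnumbered those listed as 1. After merging, regions of 700 to 1000 bp had a neighbour within 10 kb in 23.8% of cases, against 31.1% for regions of comparison width.

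The decline in number with width was not smooth. The step of 690 to 699 bp held 81 peaks, against 54 at 680 to 689 bp and 57 at 700 to 709 bp. Within the broad class, widths of 760 to 799 bp had 23.25 peaks per 10 bp, widths of 800 to 839 bp 27.75 and widths of 840 to 879 bp 18.5. These steps were picked after their values were seen.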
